A study of Mus musculus with 8 samples.

Results

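The Schlafen genes are a vertebrate gene family that many cells switch on in response to type I interferon. Schlafen proteins share an N-terminal core that can cut RNA, and the long members carry a helicase-like C-terminal domain that the short ones lack. In mice the family is known for roles in keeping T cells and monocytes quiescent, in myeloid cell development and in restricting viruses, and its best studied human relative, SLFN11, arrests stressed replication forks. The 7 members described here are Slfn1, Slfn2, Slfn3, Slfn4, Slfn5, Slfn8 and Slfn9. They were picked by symbol, and each symbol matched 1 of the 55450 Ensembl genes listed for replicates 1 to 3 and 1 of the 24848 listed for replicate 4. All 7 passed the filter on low values, which asked for at least 1 FPKM (reads per gene scaled to gene length and library depth) in at least 3 of the 6 libraries of replicates 1 to 3.

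Messenger RNA came from mouse cultures that the labels call bone marrow-derived dendritic cells, while the sample titles carry the abbreviation BMDMs. The cells were grown from marrow of animals described as SS dry eye mice, and this holds for both groups. One group of 4 libraries was treated with the recombinant form of S100A8/A9, calcium-binding proteins that myeloid cells release as a pair in inflammation, and the other group of 4 received PBS and is called vehicle here. Strain, age, dose and duration of treatment are not given in the sources used here, and neither is whether replicates came from separate animals or cultures, so the spread between libraries may be partly technical. The authors made 1 table for replicates 1 to 3 of both groups and another for replicate 4 of both, and log2(FPKM + 1) correlated at 0.985 to 0.993 between libraries of the first table but at 0.929 to 0.936 across the tables. Levels are therefore compared within a table only. Of 13 dendritic cell markers, 8 passed the filter in replicates 1 to 3, among them Itgax, Cd74 and Ccr7. Flt3, Xcr1, Clec9a and Dpp4 were below it, and Cd209a was listed at 0 in all 6 libraries. Of 12 macrophage markers, all 12 passed, with summed levels of 981 to 1467 FPKM with S100A8/A9 and 879 to 1397 FPKM with vehicle. In bulk RNA, more transcript per cell and more cells of an expressing type cannot be told apart.

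The 7 genes lie together on chromosome 11. In mm10, the build named in the submitters' processing notes, the cluster runs from 82951349 to 83215154, a span of 264 kb, with GENCODE M21 giving the order Slfn5, Slfn9, Slfn8, Slfn2, Slfn1, Slfn4 and Slfn3. Slfn8 and Slfn9 are on the reverse strand and the other members on the forward strand. The gene ends of Slfn4 and Slfn3 are 1113 bp apart, whereas Slfn8, Slfn2, Slfn1 and Slfn4 are separated by gaps of 44301 to 52515 bp. The annotated coding sequence was 2652 nucleotides for Slfn5 and 2730 for both Slfn8 and Slfn9, the long forms. It was 1920 nucleotides for Slfn3 and 1806 for Slfn4, the intermediate forms, and 1011 for Slfn1 and 1134 for Slfn2, the short forms. Slfn8 and Slfn9 shared 92.7% of aligned coding bases, and Slfn3 and Slfn4 shared 94.6% over the 1650 aligned bases.

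The promoter sequences are shown because the members fell into 2 sets by the short motifs found upstream of their RefSeq start sites. The string shared by Slfn1, Slfn2, Slfn3 and Slfn4 was itself picked from these sequences. RefSeq promoters (GRCm38.p6, 250 bases before to 50 bases after the start) were found for all 7 members, and for Slfn8 the start farthest upstream was used. Motifs were searched on both strands. The first was the interferon-stimulated response element, ISRE, in the form GAAA, any 2 bases and GAAA again, which is bound by interferon regulatory factors. It was found in the promoters of Slfn5, Slfn8 and Slfn9, the 3 long forms at one end of the cluster, and in 3.44% of the 32851 RefSeq promoters of the same length. The windows below are 60 bases, written 5′ to 3′ on the gene's strand, with the motif match in capitals (for Slfn8 and Slfn9 the match is the motif read on the opposite strand).
Slfn5, chr11:82951922-82951981, forward strand: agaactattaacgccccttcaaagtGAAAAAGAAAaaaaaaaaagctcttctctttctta
Slfn8, chr11:83020824-83020883, reverse strand: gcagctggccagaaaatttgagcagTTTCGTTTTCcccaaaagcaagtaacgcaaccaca
Slfn9, chr11:82991841-82991900, reverse strand: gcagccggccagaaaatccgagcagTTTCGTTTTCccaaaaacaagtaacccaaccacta
Counted from the RefSeq start site, the match began at base -155 in Slfn5, -48 in Slfn8 and -45 in Slfn9. For Slfn5 the RefSeq promoter, 82951852 to 82952151, lies wholly within the GENCODE gene, which begins at 82951349. The Slfn5 match is thus upstream of the RefSeq start but not of the GENCODE one. The promoters of Slfn8 and Slfn9 were 88.9% identical over 271 aligned bases, so these matches are not separate observations.

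The short and intermediate members Slfn1, Slfn2, Slfn3 and Slfn4 had no match to that ISRE form in the window. All 4 instead held ACTTCCTGG, which contains the core letters bound by ETS-family factors such as PU.1, the main lineage factor of myeloid cells. This string was noticed in the members' sequences and then searched, and it occurred in 0.843% of all RefSeq promoters of that length. Its presence in the 4 members was fixed by that choice, so nothing is read from the difference to this share. The GAS form (TTC, any 3 bases and GAA) was also searched and was found in 0 of the 7 members and in 8.3% of RefSeq promoters. The capitals mark ACTTCCTGG in the 4 windows.
Slfn1, chr11:83116721-83116780, forward strand: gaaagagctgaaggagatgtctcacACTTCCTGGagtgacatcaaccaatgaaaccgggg
Slfn2, chr11:83065032-83065091, forward strand: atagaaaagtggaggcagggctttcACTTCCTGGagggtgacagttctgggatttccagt
Slfn3, chr11:83191263-83191322, forward strand: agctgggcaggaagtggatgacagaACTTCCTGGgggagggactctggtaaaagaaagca
Slfn4, chr11:83175088-83175147, forward strand: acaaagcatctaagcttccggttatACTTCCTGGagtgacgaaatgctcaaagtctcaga
In Slfn2 the string overlaps a match on the opposite strand to GGAA, any 2 bases and GAAA, the composite element of PU.1 with an interferon regulatory factor, which was found in 2.72% of RefSeq promoters and in no other member. These matches describe letters in a fixed window and do not show that a factor binds there.

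**Figure D1:**
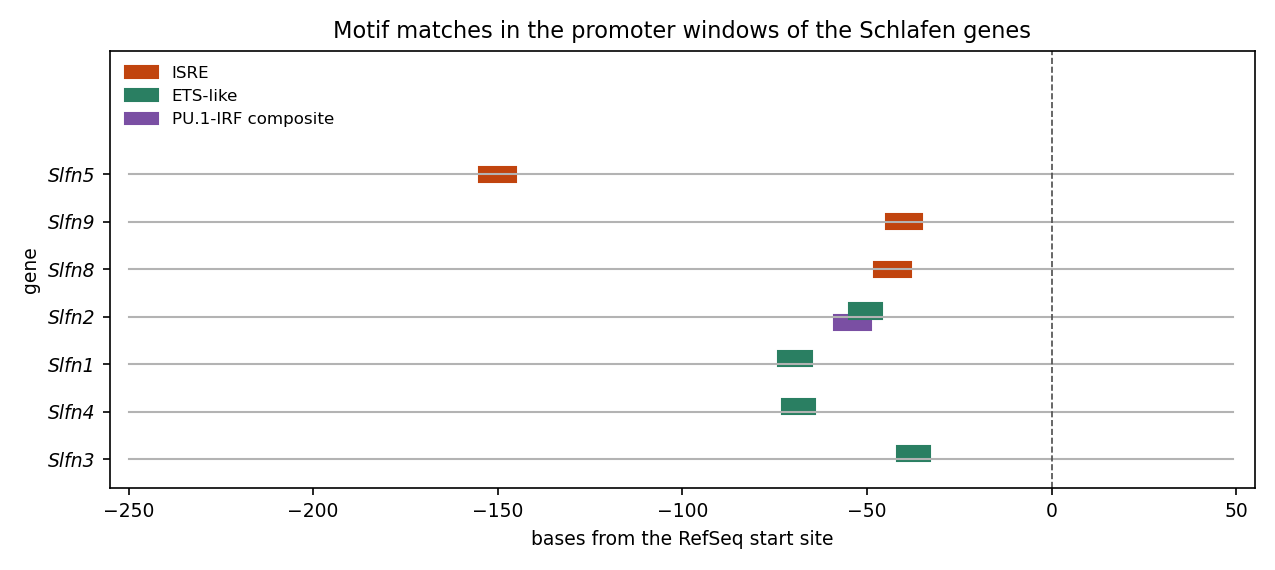
Positions of motif matches (colored boxes) in the promoter window of each Schlafen gene, in bases from the RefSeq start site on the x axis and with genes from top to bottom in their order along chromosome 11. The ISRE form is in Slfn5, Slfn9 and Slfn8, and the ETS-like string is in Slfn2, Slfn1, Slfn4 and Slfn3, with the PU.1-IRF composite overlapping it in Slfn2.

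In every pair of libraries with equal replicate number among replicates 1 to 3, all 7 Schlafen genes were at a higher FPKM with S100A8/A9. The same held in all 3 pairs for 19.4% of the 11387 genes tested. The geometric mean of the within-pair ratios was between 1.33-fold for Slfn2 and 2.60-fold for Slfn5, and it was 2-fold or more for Slfn1, Slfn4, Slfn5 and Slfn9, that is 4 of the 7, against 0.817% of all tested genes. The family was chosen with this contrast already known, so these values describe the members and nothing is read from the difference to the background. In limma on log2(FPKM + 1) without the replicate number, 0 of the 7 members passed an adjusted p of 0.05 (Benjamini-Hochberg over all genes), as did 0 of all genes, a called share of 0.0%, with 344 genes at an unadjusted p under 0.05. With the replicate number as a block, Slfn5 and Slfn8 passed, 2 of the 7 members, where 0.501% of all genes were called higher with S100A8/A9. Neither call held with median-of-ratios or quantile scaling, with all 8 libraries, or without replicate 3, and the call of Slfn8 was also lost without replicate 1.

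**Figure D2:**
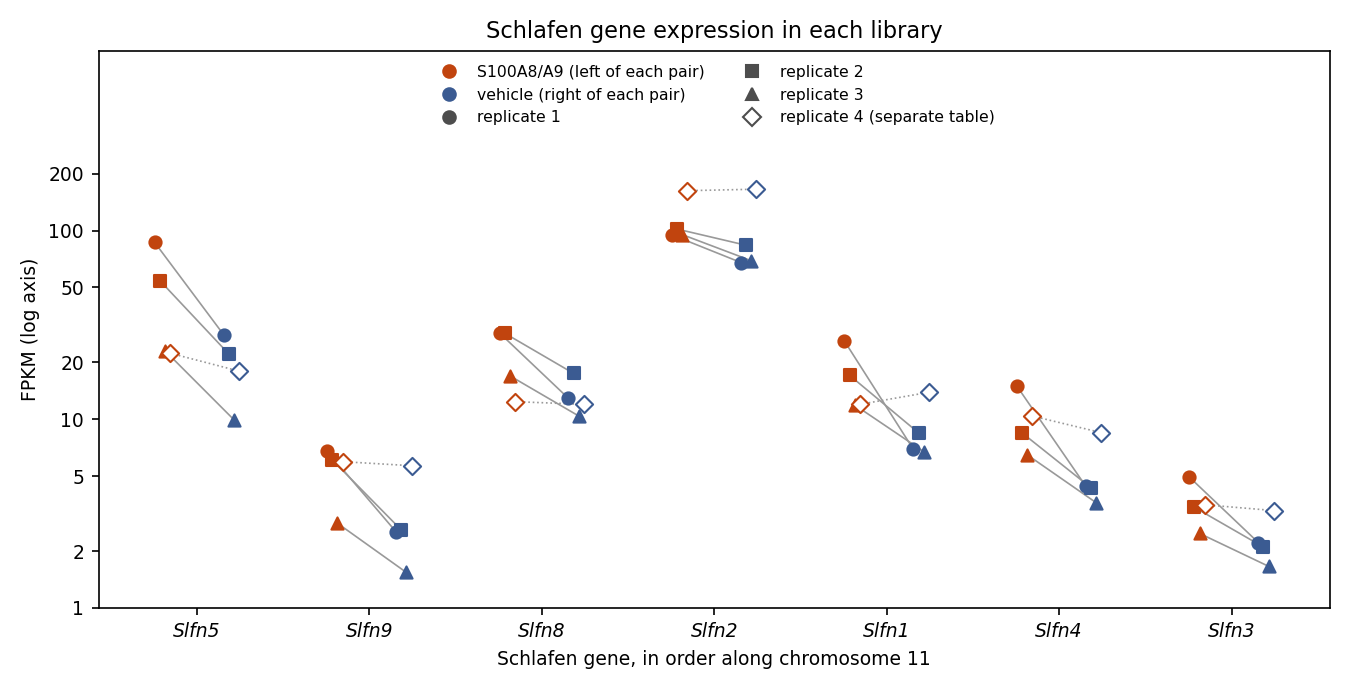
FPKM (log axis) of the 7 Schlafen genes in every library, with S100A8/A9 at the left and vehicle at the right of each gene and lines joining libraries of the same replicate number. Filled symbols are replicates 1 to 3, where each line falls toward vehicle, and open diamonds are replicate 4 from the separately made table, where Slfn1 and Slfn2 lie slightly lower with S100A8/A9.

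Among the long members, Slfn5 encodes a nuclear protein whose human relative acts on interferon-regulated transcription. Slfn5 (ENSMUSG00000054404, chr11:82951349-82964840) was at 86.7, 54.4 and 23.1 FPKM with S100A8/A9 in replicates 1, 2 and 3, against 28.1, 22.2 and 9.94 FPKM with vehicle. The groups overlapped, since S100A8/A9 replicate 3 was below vehicle replicate 1, yet each S100A8/A9 library was well above the vehicle library of its own number. The within-pair ratios were 3.08, 2.45 and 2.32. The log2 difference in log2(FPKM + 1) was 1.33, with an SE of 0.52 without the block and of 0.10 with it, a 5.41-fold smaller error. The median gene had an SE 1.39-fold smaller with the block, so the gain from pairing was larger for Slfn5 than for the median gene. Summed macrophage markers were also highest in replicate 1, at 1467, 1066 and 981 FPKM with S100A8/A9 and 1397, 1020 and 879 FPKM with vehicle in replicates 1 to 3. Within that list Cd14 ran the other way, at 109, 211 and 347 FPKM with S100A8/A9 and 94.1, 194 and 278 FPKM with vehicle. The monocyte and dendritic cell sums given below had the same order as the macrophage sums, while the neutrophil sums rose from replicate 1 to 3. The part of these markers in the level of Slfn5 was not tested.

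Slfn8 and Slfn9 are close copies of each other on the reverse strand, and they belong to the long group that also holds human SLFN11. Slfn8 (ENSMUSG00000035208, chr11:83002158-83020810) was at 28.7, 28.6 and 17.0 FPKM with S100A8/A9, against 12.9, 17.5 and 10.4 FPKM with vehicle. S100A8/A9 replicate 3 lay just below vehicle replicate 2, so these groups overlapped as well. The within-pair ratios of Slfn8 were 2.24, 1.63 and 1.62, and the log2 difference was 0.81 with an SE of 0.25, or 0.10 with the block. Slfn9 (ENSMUSG00000069793, chr11:82978390-82991830) was at 6.78, 6.09 and 2.81 FPKM with S100A8/A9, against 2.53, 2.59 and 1.54 FPKM with vehicle. The Slfn9 groups did not overlap, and both groups had their lowest library in replicate 3, as for every other member except Slfn2. Its ratios were 2.69, 2.35 and 1.83, and its log2 difference was 0.90 with an SE of 0.28, or 0.13 with the block.

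The intermediate members Slfn4 and Slfn3 are neighbors at the right end of the cluster. Slfn4 (ENSMUSG00000000204, chr11:83175186-83190216), which in mice marks myeloid cells and is switched off as monocytes mature, was at 15.0, 8.47 and 6.48 FPKM with S100A8/A9, against 4.41, 4.33 and 3.61 FPKM with vehicle. The lowest S100A8/A9 library was above the highest vehicle library, and the vehicle libraries lay close together while those with S100A8/A9 ranged 2.31-fold. The ratios of Slfn4 were 3.40, 1.96 and 1.80, and the log2 difference was 1.03 with an SE of 0.26, or 0.17 with the block. Slfn3 (ENSMUSG00000018986, chr11:83191330-83215154), studied mainly in rodent gut epithelium, was at 4.94, 3.41 and 2.48 FPKM with S100A8/A9, against 2.22, 2.10 and 1.66 FPKM with vehicle. Slfn3 had the lowest mean level of the family in either group, and its groups did not overlap. Its ratios were 2.22, 1.62 and 1.49, with a log2 difference of 0.59 and an SE of 0.20, or 0.13 with the block.

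The short members Slfn1 and Slfn2 were first described in thymocytes, where Slfn1 can slow growth, and loss of Slfn2 function in mice leaves T cells and monocytes unable to stay quiescent. Slfn1 (ENSMUSG00000078763, chr11:83116849-83122670) was at 26.0, 17.1 and 11.9 FPKM with S100A8/A9, against 6.93, 8.47 and 6.74 FPKM with vehicle. It had both the highest single ratio of the family, 3.75 in pair 1, and one of 1.77 in pair 3. Its log2 difference was 1.15 with an SE of 0.25, or 0.19 with the block. Slfn2 (ENSMUSG00000072620, chr11:83065112-83070678) was at 95, 102 and 95.3 FPKM with S100A8/A9, against 67.8, 83.7 and 69.3 FPKM with vehicle. It was the most abundant member and the one with the smallest ratios, which were 1.40, 1.22 and 1.38. Its groups did not overlap, and its log2 difference was 0.41 with an SE of 0.11, or 0.06 with the block. In all, the groups did not overlap for 5 of the 7 members, while 4.71% of all tested genes had every S100A8/A9 library above every vehicle library.

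Pair 1 had the highest ratio for all 7 members. The median ratio over the members was 2.69 in pair 1, 1.96 in pair 2 and 1.77 in pair 3, while the median over all tested genes was 0.995, 1.005 and 1.065 in the same pairs.

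The members differed in where their variation lay. The SD of log2 FPKM over the 3 vehicle libraries was 0.79 for Slfn5, 0.42 for Slfn9 and 0.38 for Slfn8, more than in 96.7%, 86.3% and 82.6% of the tested genes. It was 0.16 to 0.22 for Slfn1, Slfn2, Slfn3 and Slfn4, near the median of 0.18 over all genes. With S100A8/A9 the SD was 0.97 for Slfn5, 0.69 for Slfn9, 0.44 for Slfn8, 0.56 for Slfn1, 0.50 for Slfn3 and 0.62 for Slfn4, and the median gene had 0.20. For these 6 members it was larger than with vehicle, whereas for Slfn2 it was smaller, at 0.06 with S100A8/A9 against 0.17 with vehicle. The members with an ISRE form in the promoter window are thus the same 3 whose vehicle level varied most between replicate numbers. With S100A8/A9 this did not hold, since Slfn8 varied less than Slfn1, Slfn3 and Slfn4, which had no such match. The correspondence in vehicle was seen after the values were known, the sets hold 3 and 4 genes, and it was not tested.

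**Figure D3:**
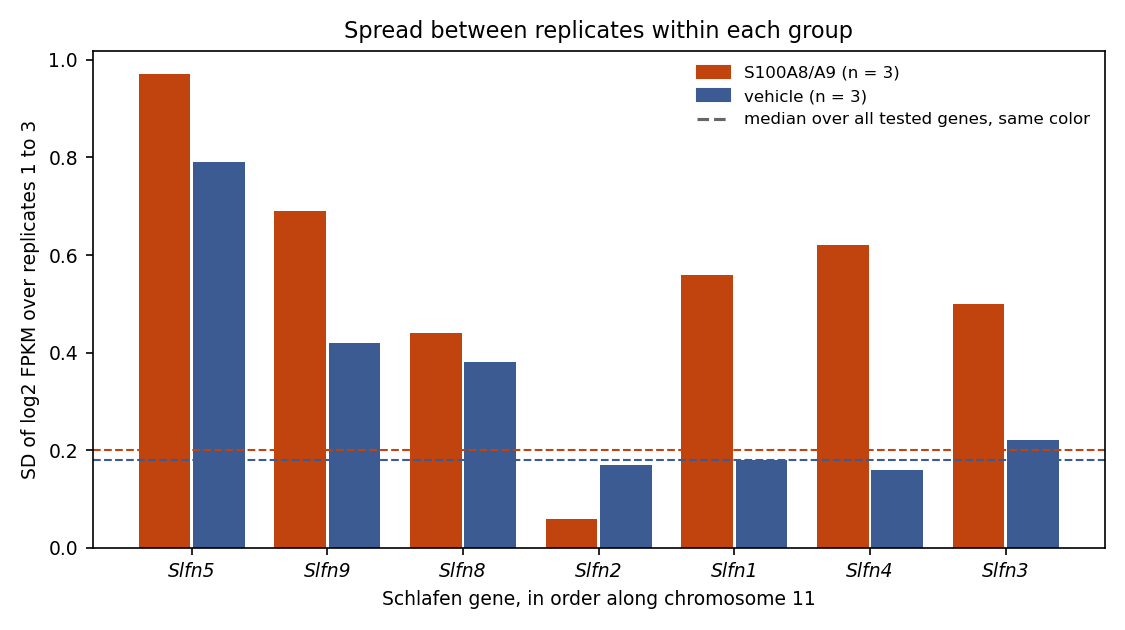
SD of log2 FPKM over replicates 1 to 3 for each Schlafen gene, with S100A8/A9 at the left and vehicle at the right of each pair of bars, and dashed lines at the medians over all tested genes (0.20 with S100A8/A9 and 0.18 with vehicle). Slfn5, Slfn9 and Slfn8 have vehicle bars of 0.38 to 0.79, and the other members have vehicle bars of 0.16 to 0.22.

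The order of the levels was the same in both groups of replicates 1 to 3. With S100A8/A9 the means were 97.4 ± 3.82 FPKM for Slfn2, 54.8 ± 31.8 for Slfn5, 24.8 ± 6.77 for Slfn8, 18.3 ± 7.10 for Slfn1, 9.98 ± 4.45 for Slfn4, 5.23 ± 2.12 for Slfn9 and 3.61 ± 1.24 for Slfn3 (SD, n = 3). With vehicle they were 73.6 ± 8.79 FPKM for Slfn2, 20.1 ± 9.28 for Slfn5, 13.6 ± 3.61 for Slfn8, 7.38 ± 0.949 for Slfn1, 4.12 ± 0.440 for Slfn4, 2.22 ± 0.590 for Slfn9 and 2.00 ± 0.294 for Slfn3 (SD, n = 3). Slfn2 lay above every library of every other member in both groups. Below it, each member's libraries overlapped those of the next with S100A8/A9, while with vehicle only Slfn5 with Slfn8 and Slfn9 with Slfn3 overlapped. Vehicle Slfn2 was above 96.0% of the tested genes in mean FPKM and vehicle Slfn3 above 15.8%.

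The make-up of the family's transcripts shifted with the level of Slfn5. The summed FPKM of the 7 members was 263, 220 and 159 with S100A8/A9, against 125, 141 and 103 with vehicle, in replicates 1 to 3. Slfn5 made up 33.0%, 24.8% and 14.5% of that sum with S100A8/A9, against 22.5%, 15.8% and 9.63% with vehicle. Slfn2 made up 36.1%, 46.3% and 59.9% of the sum with S100A8/A9, against 54.3%, 59.4% and 67.1% with vehicle. In each pair the share of Slfn5 was larger and that of Slfn2 smaller with S100A8/A9.

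Replicate 4, from the separately made table, showed smaller differences. In that table the values of all 7 members were whole reads given each gene's exon length, so reads could be counted, with 1 library per group and no test. Slfn5 was at 22.4 FPKM (4734 reads) with S100A8/A9 and at 18.0 FPKM (3635 reads) with vehicle, a ratio of 1.24 with a 95% exact binomial interval of 1.19 to 1.30. Slfn4 was at 10.4 FPKM (1380 reads) with S100A8/A9 and at 8.49 FPKM (1073 reads) with vehicle, a ratio of 1.23 with an interval of 1.13 to 1.33. These 2 members were higher with S100A8/A9 beyond counting error. The intervals cover counting error only, not the spread between cultures, and they are too narrow if both mates of a fragment were counted, since 58.1% of whole values up to 20 reads with S100A8/A9 and 57.8% with vehicle were even.

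For the other members in replicate 4 the difference was small or went the other way. Slfn1 was at 12.0 FPKM (750 reads) with S100A8/A9 and at 13.9 FPKM (828 reads) with vehicle, a ratio of 0.86 with an interval of 0.78 to 0.96. Slfn2 was at 163 FPKM (9061 reads) with S100A8/A9 and at 166 FPKM (8790 reads) with vehicle, a ratio of 0.98 with an interval of 0.96 to 1.01. Slfn3, Slfn8 and Slfn9 had ratios of 1.07, 1.04 and 1.05, each with an interval that held 1. So 5 of the 7 members were above 1 in replicate 4, as were 54.4% of the 11413 genes with at least 1 FPKM in both of its libraries. For all 7 members the replicate 4 ratio was below each of the ratios of pairs 1 to 3, as it was for 63.1% of the 2075 genes that were higher in all 3 pairs and had at least 1 FPKM in both replicate 4 libraries. The order of levels in replicate 4 vehicle was Slfn2, Slfn5, Slfn1, Slfn8, Slfn4, Slfn9 and Slfn3, differing from replicates 1 to 3 in the places of Slfn1 and Slfn8.

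Genes within and beside the cluster that are not members gave a local comparison. Slfn10-ps, a transcribed pseudogene lying between Slfn8 and Slfn2 with stretches identical to Slfn8 and Slfn9, was at 6.44, 6.04 and 7.49 FPKM with S100A8/A9, against 5.69, 5.09 and 6.90 FPKM with vehicle. It was higher in each pair, but by ratios of only 1.13, 1.19 and 1.08, and it was not called with the block (adjusted p = 0.723 in limma). In replicate 4 its ratio was 1.21 with an interval of 1.10 to 1.34, which is above those of its neighbors Slfn8 and Slfn2 in the same libraries. The predicted gene Gm11425, beside it, had ratios of 1.90, 0.86 and 1.03 in pairs 1 to 3, so its directions differed. Outside the cluster, Nle1 to the left had a geometric mean ratio of 0.87. To the right, AI662270 had ratios of 1.26, 1.17 and 0.96 with a geometric mean of 1.12, close to that of Slfn10-ps, and Gm11427 and Ap2b1 both had geometric means of 1.00. Slfn14, whose product cleaves RNA on ribosomes, was listed at 0 in all 6 libraries of replicates 1 to 3, and the Schlafen-like gene Slfnl1 reached at most 0.111 FPKM.

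**Figure D4:**
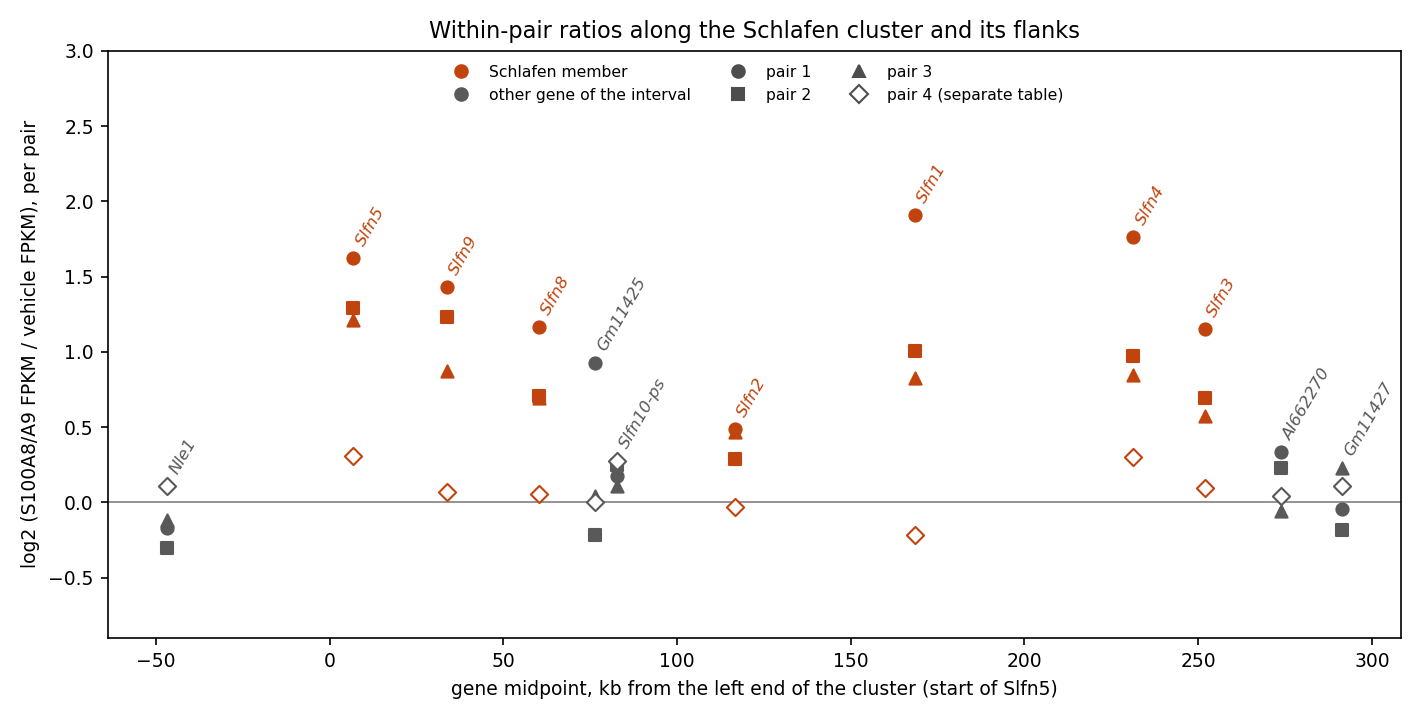
Log2 ratio of S100A8/A9 to vehicle FPKM in each pair (y axis) for every gene that passed the filter in the cluster and next to it, up to 300 kb from its left end, by the distance of its midpoint from the left end of the cluster in kb (x axis). Schlafen members in pairs 1 to 3 lie above 0, Slfn10-ps inside the cluster lies close to 0, Gm11425 is high in pair 1 only, and the open diamonds of replicate 4 lie near 0 for most genes.

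Reads of close relatives could in principle be exchanged between members. Of all 100-base windows in the GENCODE transcripts, 3.71% of those of Slfn9 and 3.38% of those of Slfn8 occurred in another Schlafen gene, namely Slfn10-ps or each other. For Slfn1, Slfn2, Slfn3, Slfn4 and Slfn5 the share was at most 0.13%, though 2.92% of the Slfn3 windows occurred in genes outside the family, which include its neighbor Gm11427. With 50-base windows it was 14.6% for Slfn8, 11.2% for Slfn9, 8.15% for Slfn4, 7.39% for Slfn3, 4.27% for Slfn2, 0.61% for Slfn1 and 0% for Slfn5. Read length and the handling of multiply mapped reads are not given in the sources used here, so the values of Slfn8 and Slfn9 are the less certain ones. Slfn5 overlaps the antisense gene Slfn5os, listed at no more than 0.140 FPKM, and Slfn2 overlaps the antisense gene Gm20234, listed at no more than 0.705 FPKM in replicates 1 to 3. No strand marking is stated, so reads of these partners cannot be told apart.

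Of the 7 genes of interferon receptor signaling, 1 rose with the block and none fell, against 0.518% of all genes called in either direction, and the median log2 difference was 0.11 against 0.025 over all genes. Stat2 was the one that rose, at 67.7, 72.5 and 51.5 FPKM with S100A8/A9, against 28.5, 38 and 30.6 FPKM with vehicle, with a log2 difference of 0.96 (limma adjusted p = 0.0289 with the block, 0.736 if it is left out). Irf9 had ratios of 1.37, 1.33 and 1.43, and its limma adjusted p was 0.057 when the block was used. The receptor chains Ifnar1 and Ifnar2 and the kinases Jak1 and Tyk2 had geometric mean ratios of 1.00, 1.03, 1.00 and 1.09. In replicate 4, Stat2 had a ratio of 1.18 and Irf9 of 1.09, below each of their ratios in pairs 1 to 3. Among 6 interferon regulatory factors none was called, with Irf7 at ratios of 3.04, 1.79 and 1.68, and among 9 tested genes linked to replication stress, ubiquitin ligation or quiescence, such as Rpa1, Ddb1 and Foxo1, none was called and the median log2 difference was 0.02.

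Over the 6 libraries of replicates 1 to 3, the genes most like each member were taken by Pearson correlation of log2(FPKM + 1) among 10173 genes. These values are a description over 6 libraries that all genes share. Slfn5 was most like Eif2ak2, which encodes the RNA-activated kinase PKR, with r of 0.999, then Oas1a with 0.998 and Ifi202b with 0.995. Slfn9 was most like Ifit3, Samd9l and Parp9, with r of 0.996, 0.994 and 0.994. Slfn3 was most like Oas3, Bcl9 and Irf7, with r of 0.997, 0.996 and 0.996. For Slfn1 the genes were Chmp4b, Tor3a and Xaf1 (0.991, 0.991 and 0.990), for Slfn4 Pop1, Psmg2 and Parp12 (0.991, 0.990 and 0.990), and for Slfn8 Igsf6, Batf2 and Slc25a32 (0.990, 0.985 and 0.983). Slfn2 was most like Mospd2, Tmem161a and Irf9, with r of 0.993, 0.981 and 0.981. Among the members themselves, r was lowest between Slfn2 and Slfn5, at 0.67, and highest between Slfn4 and each of Slfn3 and Slfn1, at 0.99.

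Within pairs, the summed macrophage, monocyte and dendritic cell markers were each higher with S100A8/A9 in all 3 pairs, though the groups overlapped. Gene by gene this held for 4 of 12 tested macrophage, 1 of 6 tested monocyte and 2 of 8 tested dendritic cell markers. The macrophage sums are given above. Monocyte markers summed to 20699, 12211 and 9771 FPKM with S100A8/A9, against 17812, 12129 and 9739 FPKM with vehicle. Chil3 made up most of that sum, at 20200, 11661 and 9325 FPKM with S100A8/A9 and 17342, 11604 and 9235 FPKM with vehicle. The mean log2(FPKM + 1) of the monocyte markers was 5.62, 5.64 and 5.49 with S100A8/A9, against 5.45, 5.68 and 5.65 with vehicle. Dendritic cell markers summed to 5443, 3928 and 3864 FPKM with S100A8/A9, against 5412, 3890 and 3581 FPKM with vehicle. Cd74 made up most of the dendritic cell sum, at 3823, 2826 and 2779 FPKM with S100A8/A9 and 3790, 2752 and 2530 FPKM with vehicle. The plasmacytoid dendritic cell list summed to 79.8, 58.5 and 58.6 FPKM with S100A8/A9, against 52.2, 53.8 and 41.4 FPKM with vehicle, and these groups did not overlap. Bst2, which is also inducible by interferon, made up most of that sum at 71.5, 50.6 and 50.4 FPKM with S100A8/A9 and 43.6, 44.3 and 34.4 FPKM with vehicle. Siglech, a defining gene of those cells, was listed at 0 in all 6 libraries. The part of these markers in the Schlafen levels was not tested. Summed neutrophil markers were 131, 158 and 272 FPKM with S100A8/A9, against 131, 151 and 282 FPKM with vehicle. Mmp8 and S100a8 together made up most of that sum. Mmp8 was at 98.3, 60.5 and 72.0 FPKM with S100A8/A9 and 98.5, 59.8 and 68.5 FPKM with vehicle. S100a8 was at 11.4, 52.5 and 113 FPKM with S100A8/A9 and 9.72, 44.1 and 125 FPKM with vehicle. Only 6 of the 15 neutrophil markers passed the filter, and Ly6g, Mpo and Elane were among those below it. T and NK cell markers summed to 8.31 to 9.42 FPKM with S100A8/A9 and 9.02 to 12.3 FPKM with vehicle. B cell markers summed to 5.86 to 8.52 FPKM with S100A8/A9 and 6.41 to 7.47 FPKM with vehicle. Proliferation genes, of interest because Schlafen proteins are linked to quiescence, summed to 54.3 to 58.7 FPKM with S100A8/A9 and 51.5 to 57.2 FPKM with vehicle. Pcna made up most of that sum, at 37.2, 45.2 and 42.5 FPKM with S100A8/A9 and 36.3, 43.5 and 39.1 FPKM with vehicle. Ccnb1, Ccna2, Cdk1 and Birc5 were below the filter. None of the tested genes of these lists was called with or without the block.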

How the data were processed

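The authors deposited 1 value per Ensembl gene, which was read as FPKM from the values themselves because the unit is not stated. HISAT2, featureCounts, Subread, DESeq2 and the mm10 build appear in the submitters' processing notes with no role given. Per the labels' protocols, poly(A) RNA was fragmented and copied with random priming. Per-sample files and the series table agreed in every value. FPKM sums were 282921 to 303660 in replicates 1 to 3. In replicate 4, 98.77% of values up to 20 reads with S100A8/A9 and 98.55% with vehicle were whole within 0.01 reads, implying 33406251 and 31889670 reads in that order. In replicates 1 to 3 the best step made 3.70% to 4.33% of such values whole, so their depth is unknown.

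Replicates 1 to 3 were tested with limma-trend (limma 3.58.1, R 4.3.3) on log2(FPKM + 1), two-sided, over the 11387 genes that reached 1 FPKM in 3 or more of these 6 libraries, at a Benjamini-Hochberg adjusted p of 0.05. This scale understates changes of low genes. Pairing by replicate number was read from the values. Before calls were compared, deviations from the group means correlated at 0.59, 0.25 and 0.52 between equal numbers and at -0.53 to -0.01 between different ones. The contrast is partly built in, because centering on the group mean makes positive values between equal numbers lower those between different ones. Results with the number as a block are therefore given too. The fits were checked on simulated data with known changes. Members and lists were chosen with earlier results of these data known. Named genes are all members, the Schlafen relatives and the interferon receptor signaling genes, called genes of the other lists, and the 3 most alike genes per member. Irf7, Rpa1, Ddb1, Foxo1, the marker genes and the genes flanking the cluster fall outside that rule and were named after their values were seen. Some items are not reported here. Coordinates and lengths are from GENCODE M21 (mm10) and promoters from RefSeq (GRCm38.p6). Alternatives were another pseudocount, filters, scalings, the block, all 8 libraries and leaving out libraries.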

Additional observations from a re-analysis of the deposited data

How the results depend on the processing

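The 7 log2 differences stayed above 0 under every alternative run in which the member was tested, and at a filter of 5 FPKM the 5 members that passed it were all above 0. Their median, 0.90 as reported, was 0.69 with all 8 libraries and lay between 0.71 and 1.22 when single libraries or pairs were left out, reaching 1.22 without S100A8/A9 replicate 3. Of 131 member values under alternatives, 124 stayed within 1 SD of the within-pair log2 ratios and 7 moved by more. The 124 overstate stability, because the replicate block alone and the filters cannot change a member's own log2 difference. The scaled fits and the fit of all 8 libraries likewise gave the same differences with the block as without it. Of the 7, 6 were of Slfn5, whose log2 difference was between 0.91 and 1.84, and 1 was of Slfn9. The counts of calls depended on the settings. With the replicate block 59 genes were called and 2 of them were members, against 0 without it. With the block, median-of-ratios factors or quantile normalization left 3 genes and 0 members, and all 8 libraries left 0 genes and 0 members. Leaving out pairs gave 5 to 95 genes and 0 to 4 members with the block, and leaving out single libraries gave 0 to 1 gene without it. Without replicate 3 the block called 0 members, without replicate 1 it called Slfn5 and Slfn1, and without replicate 2 it called Slfn1, Slfn4, Slfn5 and Slfn8. The cause was not tested. The order of vehicle levels was the same for all 7 members with median-of-ratios factors. Dividing replicate 4 ratios by the median of all genes, chosen after seeing the data, left 5 of 7 above 1.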
